A study of Mus musculus with 12 samples.

Results

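The genes described here encode the nuclear subunits of respiratory complexes III and IV and of ATP synthase. They were taken as every protein-coding mouse gene in the count table whose symbol begins with Uqcr, with Atp5, or with Cox followed by 4, 5, 6, 7 or 8. The rule found 40 of the 28991 genes in the table, of which 8 belong to complex III, 15 to complex IV and 17 to ATP synthase. A further 4 annotated genes with such symbols (Cox4i1, Cox7b2, Cox8c and a duplicate Atp5o entry) were not analysed here. All 40 lie on nuclear chromosomes, and nearly all encode subunits of the named complexes. The exceptions are Atp5s, once described as a coupling factor of ATP synthase, and Cox7a2l, which helps complexes III and IV join into supercomplexes.

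Complex III passes electrons from ubiquinol to cytochrome c, and complex IV (cytochrome c oxidase) passes them on to oxygen. Both pump protons across the inner mitochondrial membrane, and ATP synthase uses the returning protons to make ATP. Each of these complexes joins nuclear subunits to a few that are encoded in mitochondrial DNA, and the proximal tubule of the kidney depends on them for its transport work.

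RNA of whole kidneys was sequenced in 4 groups of 3 mice, all male, 8 weeks old and of the inbred strain BALB/c. The combination group received dichloroacetate at 250 mg per kg each day for 5 days and was then given cisplatin at 20 mg per kg together with dichloroacetate. The cisplatin group received saline for 5 days and then the same dose of cisplatin. Kidneys of both cisplatin-treated groups were taken 24 h after that injection. The dichloroacetate group received 250 mg per kg daily for 6 days, and the control group received saline daily for 6 days, all by intraperitoneal injection. Cisplatin is a platinum drug that injures the kidney tubule, and dichloroacetate inhibits the kinases that switch off pyruvate dehydrogenase. The series asks whether dichloroacetate limits the kidney toxicity of cisplatin.

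Library totals were 29505929 to 35082408 counts in the combination, 29614283 to 35925471 in cisplatin, 41525403 to 62237514 in dichloroacetate and 38236592 to 55832441 in saline. Levels are given as CPM, counts scaled to a common library size after TMM, and differences as log2 fold changes from edgeR's quasi-likelihood test. A gene is called when its adjusted p is below 0.05 over the 20370 genes tested. Of the 40 members 39 were tested. Cox8b, the heart and muscle isoform of subunit 8, had too few reads, at 0 to 9 counts per library in the combination, 3 to 5 in cisplatin, 1 to 6 in dichloroacetate and 9 to 11 in saline.

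The saline libraries were spread along a common line for these genes. In 36 of the 39 tested members saline 1 was the lowest and saline 3 the highest of the 3 saline libraries. Their summed level was 12481, 13337 and 14600 CPM in saline 1, 2 and 3. The median log2 ratio of saline 3 over saline 1 was 0.28 over the tested members. It was 0.32 over the 20 members with transcripts of up to 700 bases and 0.13 over the 7 members above 1500 bases. Over all genes of at least 10 CPM, the same ratio had a median of 0.22 for 737 genes with transcripts up to 700 bases, and of 0.00 for 8101 genes above 1500 bases. Across the 39 members, which share the same libraries, Spearman's rho between transcript length and this ratio was -0.54. The part of this spread in the results below was not tested, and counts that it moves are given with and without saline 3.

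**Figure D1:**
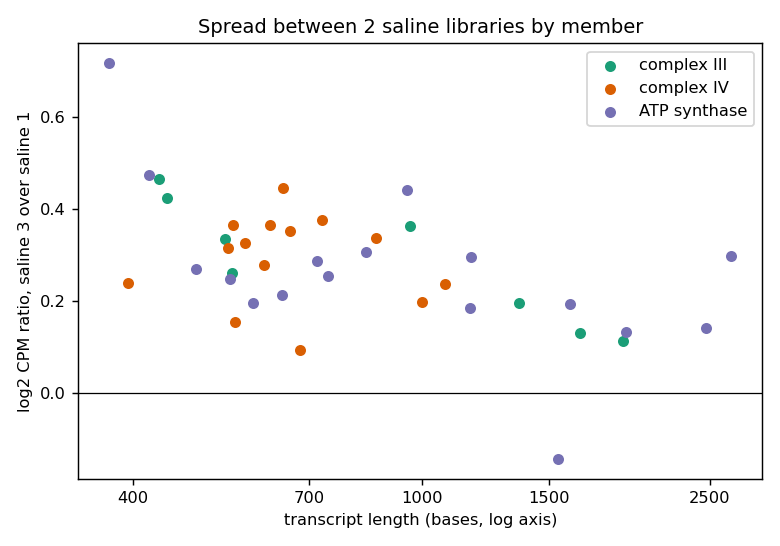
Log2 ratio of CPM in saline 3 over saline 1 (vertical axis) against transcript length in bases (log horizontal axis), 1 point for each of 39 tested members, coloured by complex. The 20 members up to 700 bases have a median of 0.32 and the 7 above 1500 bases a median of 0.13, and 38 of the 39 points lie above zero.

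Levels of different genes were compared per length, as RPKM (CPM per 1000 bases of the principal transcript). In saline kidneys Atp5b, the catalytic beta subunit of ATP synthase, was the highest, with 1607 ± 73.2 RPKM (SD, n = 3). It was followed by the c-ring gene Atp5g3 at 897 ± 91.5 RPKM and by Atp5a1, the alpha subunit, at 792 ± 38.6 RPKM. Atp5b stood apart from Atp5g3 by more than their spread, while Atp5g3 and Atp5a1 differed by about the spread of Atp5g3. The next were Cox8a at 626 ± 83.1 RPKM, Cox6a1 at 594 ± 69.3 RPKM and Cox6c at 562 ± 54.7 RPKM, 3 subunits of complex IV whose levels did not differ beyond their spread. The isoforms best known from other organs were at the bottom. The heart and muscle isoform Cox7a1 had 20.5 ± 1.91 RPKM, the testis isoform Cox6b2 6.33 ± 0.385 RPKM, the muscle isoform Cox6a2 0.948 ± 0.0319 RPKM and the lung isoform Cox4i2 0.795 ± 0.144 RPKM.

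Promoter windows, from 250 bases before to 50 after the RefSeq start (build GRCm38.p6), were found for 32 members in 35 windows. They were searched on both strands for letters read by regulators of nuclear mitochondrial genes. The NRF1 letters GCGCATGCG stood in 17.1% of the member windows and in 1.75% of all 32851 windows. These letters were chosen after a first search with a form longer by 1 base had been seen. The shorter form matches every window that the longer one does and more, so its share depends on that choice. The ETS letters CCGGAAGT, read by GABPA, stood in 11.4% against 3.89%, the ERR letters TCAAGGTCA in 2.86% against 0.423%, and the YY1 letters AAGATGGC in 8.57% against 2.75%. Of the 35 member windows these shares rest on 6 for NRF1, 4 for ETS, 3 for YY1 and only 1, that of Atp5g3, for ERR. Uqcr11 was the only member that held 2 kinds of these motifs (NRF1 and ETS), at separate places, and a match describes letters and not a bound site. The stretches below carry the promoter motifs of members that the results turn on, in the direction of transcription, with the motif in capitals. A stretch of Cox6b2, the only member that rose with cisplatin, is also shown and holds none of the 4 motifs. Most members with a window hold none either, so this is not particular to Cox6b2. They lie at chr5:115349086-115349146 (Cox6a1, NRF1), chr15:102671055-102671115 (Atp5g2, NRF1), chr10:80406854-80406913 (Uqcr11, ETS), chr11:115419925-115419984 (Atp5h, ETS, read on the opposite strand), chr2:73911344-73911404 (Atp5g3, ERR, read on the opposite strand) and chr7:4753095-4753244 (Cox6b2), all on the minus strand.
Cox6a1: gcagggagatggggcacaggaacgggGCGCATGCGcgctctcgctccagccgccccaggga
Atp5g2: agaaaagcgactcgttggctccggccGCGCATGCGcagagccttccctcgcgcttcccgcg
Uqcr11: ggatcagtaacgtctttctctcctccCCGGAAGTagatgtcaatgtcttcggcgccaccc
Atp5h: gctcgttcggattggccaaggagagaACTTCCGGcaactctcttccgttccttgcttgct
Atp5g3: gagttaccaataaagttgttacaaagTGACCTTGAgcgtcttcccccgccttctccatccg
Cox6b2: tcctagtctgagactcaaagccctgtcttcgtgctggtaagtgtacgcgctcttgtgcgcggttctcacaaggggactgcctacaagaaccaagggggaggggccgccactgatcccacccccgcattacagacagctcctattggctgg

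Cisplatin was compared with saline to describe these genes in the injured kidney. Of the 39 tested members 34 fell, 1 rose and 4 were not called, against 30.4% of all genes tested that fell and 29.7% that rose. The median log2 fold change over the members was -0.42, a change of -25.3%, while the median over all genes was -0.01. That all-gene median is largely set by the TMM scaling, here and in the comparisons below, so it is not an independent contrast. TMM factors were 0.91 to 0.964 in saline and 1.114 to 1.151 in cisplatin. This difference adds to the members' fall, whose absolute size therefore depends on the scaling. In 34 members all 3 cisplatin libraries lay below all 3 saline libraries, and in 1 above them, against 32.7% of all genes tested below and 32.2% above. Without saline 3, 33 members fell and the median was -0.34. The fall extended over all 3 complexes, with 8 of 8 members of complex III (median -0.47), 10 of 14 of complex IV (median -0.40) and 16 of 17 of ATP synthase (median -0.44). In whole tissue, fewer cells of a type and less RNA per cell cannot be told apart.

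Markers of tubule segments moved in the same comparison. All 12 proximal tubule markers fell, with a median of -2.04, and their summed level was 4223 to 5188 CPM in cisplatin against 16091 to 18085 CPM in saline. Loop and distal tubule markers fell in 7 of 8 genes and Cldn16 rose at 0.71, with 1945 to 2481 CPM in cisplatin against 4933 to 5481 CPM in saline, and collecting duct markers fell in 6 of 8, with 572 to 591 CPM against 735 to 826 CPM. Endothelial markers fell in 5 of 8 genes, with 229.8 to 239.1 CPM against 264 to 353 CPM. Macrophage markers had 3 of 8 genes lower and 1 higher, with 86.9 to 103 CPM against 97.8 to 114 CPM. Smooth muscle and pericyte markers had 1 of 8 genes lower, with 145 to 165 CPM against 180.2 to 182 CPM. The part of these cell types in the members' fall was not tested. The muscle genes Ckm, Myh4, Myh1, Tnnt3, Mylpf and Tnni2 and the fat genes Plin1, Lep, Ucp1, Cidea and Elovl3 were below 1 CPM in every library. The fat marker Cidec rose with cisplatin at 3.69 (SE 0.63, adjusted p = 1.8e-04), while Adipoq and Fabp4 were not called. The fat list summed to 33.5 to 50.9 CPM in cisplatin against 44.6 to 51.1 CPM in saline. Pvalb, listed for muscle as well as for distal tubule, fell at -2.27.

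In complex III the core subunits Uqcrc2 and Uqcrfs1, the Rieske iron-sulfur protein, fell further than the core subunit Uqcrc1. Uqcrc2 had 308, 317 and 355 CPM in cisplatin libraries 1, 2 and 3, against 464, 494 and 502 CPM in saline. The groups did not overlap, and its log2 fold change was -0.58 (SE 0.06, adjusted p = 1.2e-06). Uqcrc1 fell by 0.32 on the log2 scale (SE 0.05, adjusted p = 4.6e-05), and the ratio of Uqcrc1 to Uqcrc2 counts was 1.06 ± 0.0512 in cisplatin against 0.885 ± 0.0135 in saline (SD, n = 3). The cisplatin ratios all lay above the saline ones, with an exact permutation p of 0.1, 2-sided, the smallest that 3 against 3 allows. Among the 5 accessory subunits, all of which fell, Uqcrh, the hinge protein beside cytochrome c1, had 147, 165 and 165 CPM in cisplatin, against 206, 227 and 247 CPM in saline. Uqcr11, a very small subunit, had 82.9, 95.5 and 84.7 CPM in cisplatin, against 134, 143 and 180.2 CPM in saline. Uqcr11 (chr10:80402997-80406830) had the largest fall of the 39 tested members, -0.80 (SE 0.09, adjusted p = 6.3e-06), and its groups were separate.

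**Figure D2:**
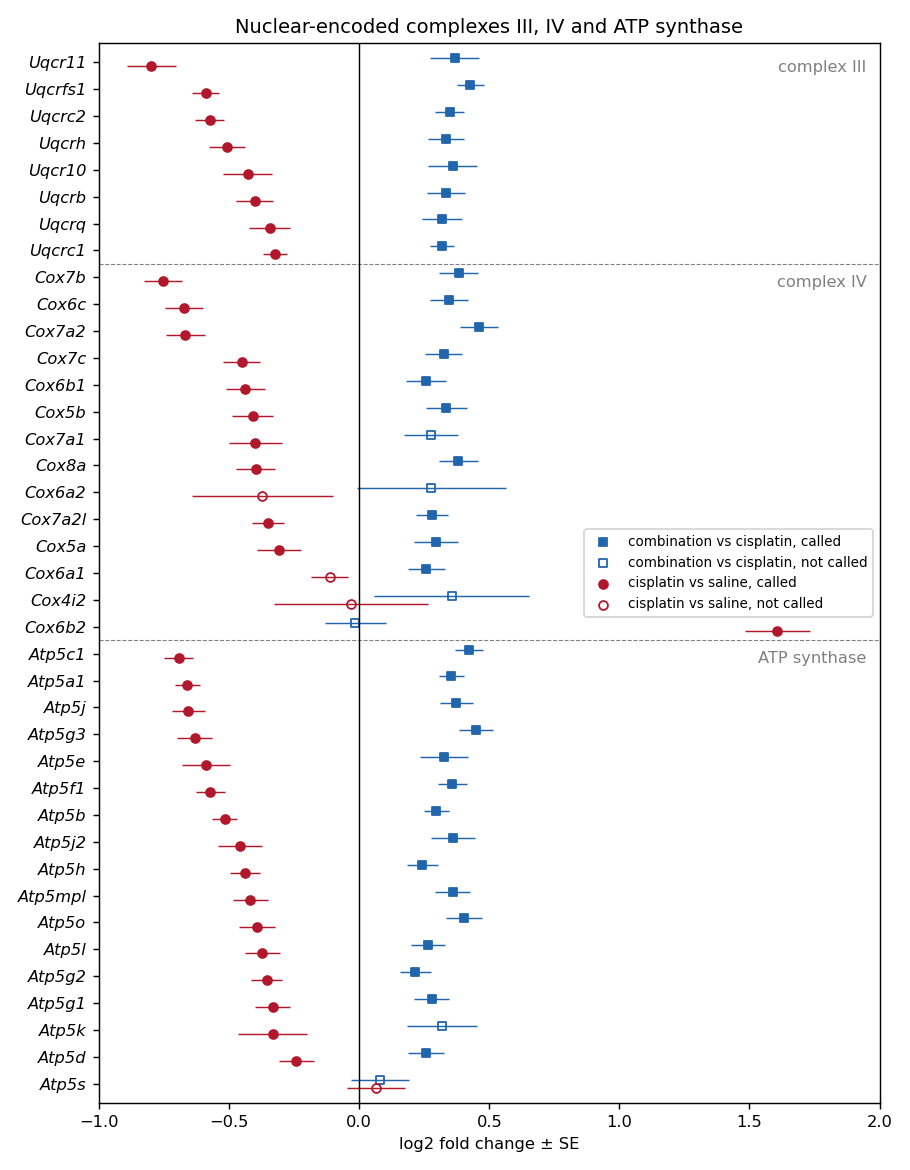
Log2 fold change with its standard error (horizontal axis) of 39 tested members, grouped by complex and ordered by the cisplatin difference, for the combination against cisplatin (squares) and cisplatin against saline (circles), filled where called. With cisplatin 34 members were called lower, with Cox6b2 at 1.61 on the other side of zero, and 33 squares are called to the right of zero.

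The widely expressed subunits of complex IV did not move by the same amount. Of the 9 tested 8 fell, between -0.31 for Cox5a and -0.75 for Cox7b. Cox7b (chrX:106015700-106022450), a small subunit encoded on the X chromosome, had 111, 132 and 135 CPM in cisplatin, against 199, 213 and 228 CPM in saline. The groups lay far apart (SE 0.07, adjusted p = 1.3e-06). Cox6a1 (chr5:115345642-115348981), the general isoform of a subunit that adjusts the activity of the enzyme, was not called. It had 309, 332 and 299 CPM in cisplatin, against 306, 329 and 383 CPM in saline, so the groups overlapped and the saline group was high only in saline 3. Its log2 fold change was -0.11, with a 95% interval of -0.28 to 0.05, and without saline 1 it was -0.19 and called (adjusted p = 0.029). The ratio of Cox6a1 to Cox7b counts was 2.50 ± 0.279 in cisplatin against 1.59 ± 0.0815 in saline (SD, n = 3), with no overlap (exact permutation p = 0.1). This ratio and the others given here were chosen after the values were seen.

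Cox6b2, the testis isoform of a subunit at the cytochrome c side of complex IV, was the only member that rose. It had 8.63, 11.2 and 12.2 CPM in cisplatin, against 3.26, 3.63 and 3.62 CPM in saline. Every cisplatin library stood above every saline library, at 3.05-fold (log2 1.61, SE 0.13, adjusted p = 1.4e-07). Its general counterpart Cox6b1 fell, with 183, 203 and 197 CPM in cisplatin against 231, 261 and 297 CPM in saline (log2 -0.44, SE 0.08, adjusted p = 2.1e-04). Per length, Cox6b2 made up 5.76% ± 0.730 of Cox6b1 and Cox6b2 together in cisplatin and 1.47% ± 0.114 in saline (SD, n = 3, exact permutation p = 0.1). The Cox6b2 gene lies at chr7:4751792-4753094, and its neighbour Kmt5c, a histone methyltransferase, moved the other way at -0.54 (SE 0.07). The neighbour Fam71e2 was at or near 0 counts in every group.

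The muscle isoform Cox7a1 fell alongside the general Cox7a2. Cox7a1 had 5.45, 6.09 and 6.70 CPM in cisplatin, against 7.55, 7.69 and 8.91 CPM in saline (log2 -0.40, SE 0.10, adjusted p = 0.0038). Cox7a2 had 133, 148 and 145 CPM in cisplatin, against 200.4, 221 and 256 CPM in saline (log2 -0.67, SE 0.07). Neither pair of groups overlapped. The supercomplex factor Cox7a2l had 97.8, 98.4 and 94.8 CPM in cisplatin, against 114, 123 and 134 CPM in saline, and fell by 0.35 on the log2 scale (SE 0.06). Cox8a, the general isoform of subunit 8, had 253, 274 and 257 CPM in cisplatin, against 307, 331 and 395 CPM in saline, and fell by 0.40 (SE 0.08). Cox6a2 stayed at 0.475 to 0.535 CPM in cisplatin against 0.620 to 0.661 CPM in saline, and Cox4i2 at 0.535 to 0.600 CPM against 0.465 to 0.671 CPM. Neither was called, at -0.37 (SE 0.27) for Cox6a2 and -0.03 (SE 0.30) for Cox4i2, and with so few reads only large differences could be detected.

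In ATP synthase the 5 subunits of the catalytic F1 head all fell, with a median of -0.59. Atp5b (chr10:128083273-128090391) had 2074, 2117 and 2261 CPM in cisplatin, against 2941, 3072 and 3222 CPM in saline. Even the highest cisplatin library lay below the lowest saline library, and its log2 fold change was -0.52 (SE 0.05, adjusted p = 8.4e-07). Atp5c1, the gamma subunit that turns inside the head, fell by 0.69 and Atp5a1 by 0.66, while Atp5d, the delta subunit of the same rotor, fell by 0.24 (SE 0.07, adjusted p = 0.0074). The ratio of Atp5d to Atp5a1 counts was 0.200 ± 0.0137 in cisplatin against 0.149 ± 0.00886 in saline (SD, n = 3, exact permutation p = 0.1).

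The c-ring, the proton-driven rotor in the membrane, is made of 1 protein encoded by 3 genes, and all 3 fell. Atp5g3 had 387, 429 and 432 CPM in cisplatin, against 587, 630.0 and 716 CPM in saline (log2 -0.63, SE 0.07). Atp5g1 had 139.6, 145 and 137 CPM, against 162, 170.0 and 199 CPM (log2 -0.33, SE 0.07). Atp5g2 had 79.0, 82.3 and 81.3 CPM, against 97.2, 102 and 111 CPM (log2 -0.36, SE 0.06). For each of the 3 genes the cisplatin libraries lay below all saline libraries. Per length, Atp5g3 made up 75.2% ± 0.904 of the c-ring RNA in cisplatin and 78.7% ± 0.364 in saline (SD, n = 3, exact permutation p = 0.1). Counts of Atp5g1 and Atp5g2 are uncertain, because near-identical copies elsewhere held reads equal to 47% of those of Atp5g1 and, in 2 copies, to 77.3% and 89.1% of those of Atp5g2. The share of Atp5g3 leaves these copies out. It also rests on transcript lengths of 2675.5 bases for Atp5g1, 586 for Atp5g2 and 718.5 for Atp5g3, so its size depends on both choices.

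The 4 genes of the peripheral stalk, which holds the head still, and the 4 other genes of the membrane part all fell. Atp5f1, the stalk's b subunit, had 337, 354 and 375 CPM in cisplatin, against 493, 529.8 and 563 CPM in saline (log2 -0.57, SE 0.06). Atp5l, the g subunit of the membrane part, had 182, 203 and 207 CPM in cisplatin, against 233, 256 and 277 CPM in saline (log2 -0.37, SE 0.07). Both sets of cisplatin libraries lay below the saline ones. Atp5k, the e subunit, was near the limit of a call, with 82.4, 100.1 and 89.8 CPM in cisplatin, against 89.2, 107 and 147 CPM in saline. Its groups overlapped, and its log2 fold change was -0.33 (SE 0.13, adjusted p = 0.045). Atp5s was not called, with 14.0, 13.0 and 11.5 CPM in cisplatin against 12.4, 13.2 and 11.2 CPM in saline.

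**Figure D3:**
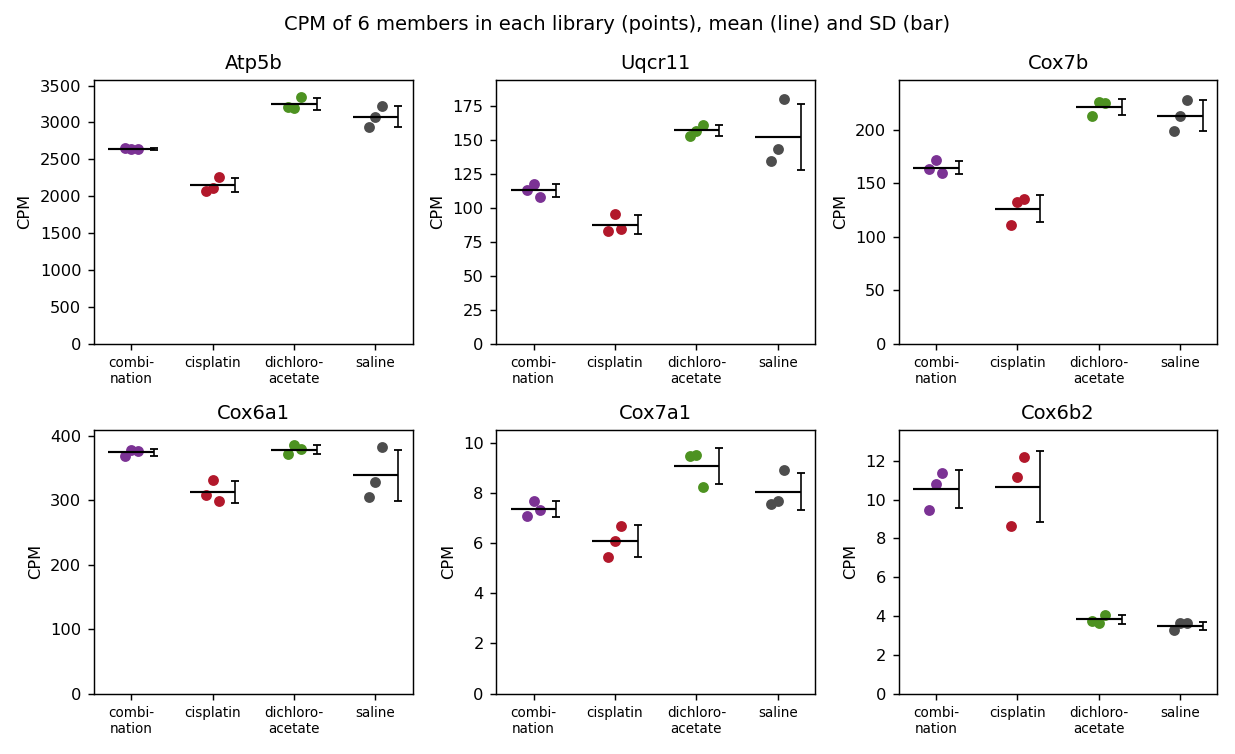
CPM (vertical axes, from 0) of Atp5b, Uqcr11, Cox7b, Cox6a1, Cox7a1 and Cox6b2 in each library of the combination, cisplatin, dichloroacetate and saline groups, with the mean as a line and the SD as a bar. Atp5b is at 2634 to 2654 CPM in the combination, 2074 to 2261 CPM in cisplatin and 2941 to 3222 CPM in saline, while Cox6b2 is at 9.46 to 11.4 CPM, 8.63 to 12.2 CPM and 3.26 to 3.63 CPM in the same groups.

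Dichloroacetate given before and with cisplatin was compared with cisplatin alone. Of the 39 tested members 33 rose in the combination, none fell and 6 were not called, against 18.1% of all genes that rose and 13.5% that fell. The median log2 fold change was 0.33 over the members and 0.01 over all genes. All 8 members of complex III rose, as did 10 of 14 of complex IV and 15 of 17 of ATP synthase. In 36 members all 3 combination libraries lay above all 3 cisplatin libraries and in none below them, against 25.2% of all genes tested above and 21.6% below. The count of 33 became 22 when cisplatin 1 was left out, and the median then was 0.26. The 12 proximal tubule markers also rose, with 8127 to 8942 CPM in the combination against 4223 to 5188 CPM in cisplatin and a median of 0.96. Collecting duct markers rose in 4 of 8 genes, between 0.20 for Scnn1g and 0.40 for Aqp3, with 599 to 685 CPM in the combination against 572 to 591 CPM in cisplatin. Of the 8 loop and distal tubule markers Slc12a3 rose at 0.46 and Pvalb at 0.64, while Cldn16 fell at -0.29, with 1837 to 2874 CPM in the combination against 1945 to 2481 CPM in cisplatin. Of the 8 macrophage markers Cd68 fell at -2.77 and the others were not called, with 70.4 to 77.6 CPM in the combination against 86.9 to 103 CPM in cisplatin. The part of these cell types in the members' rise was not tested. Endothelial markers (190.5 to 247 CPM in the combination, 229.8 to 239.1 CPM in cisplatin) and smooth muscle and pericyte markers (127 to 156 CPM against 145 to 165 CPM) had none of 8 genes called.

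The rises were of similar size in the 3 complexes, with medians of 0.34 in complex III, 0.31 in complex IV and 0.33 in ATP synthase. Uqcrc2 had 415, 418 and 413 CPM in the combination against 308, 317 and 355 CPM in cisplatin (log2 0.35, SE 0.06, adjusted p = 4.1e-04). Uqcr11 had 113, 118 and 108 CPM in the combination against 82.9, 95.5 and 84.7 CPM in cisplatin (0.37, SE 0.09, adjusted p = 0.0086). Uqcrh had 196, 209.8 and 195 CPM in the combination against 147, 165 and 165 CPM in cisplatin (0.33, SE 0.07). In each of these genes the combination libraries stood above every cisplatin library.

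Atp5b had 2654, 2636 and 2634 CPM in the combination against 2074, 2117 and 2261 CPM in cisplatin (log2 0.30, SE 0.05, adjusted p = 4.7e-04). Atp5g3 had 566, 574 and 562 CPM in the combination against 387, 429 and 432 CPM in cisplatin (0.45, SE 0.07, adjusted p = 2.4e-04). Atp5f1 had 455, 459.7 and 451 CPM in the combination against 337, 354 and 375 CPM in cisplatin (0.36, SE 0.06). The 3 combination libraries lay close together in each of these genes. Atp5l had 234, 242 and 235 CPM in the combination against 182, 203 and 207 CPM in cisplatin (0.27, SE 0.07, adjusted p = 0.0075). Atp5g1 had 169.7, 169.8 and 172 CPM in the combination against 139.6, 145 and 137 CPM in cisplatin (0.28, SE 0.07). Atp5g2 had 93.1, 97.1 and 91.6 CPM in the combination against 79.0, 82.3 and 81.3 CPM in cisplatin, the smallest called rise at 0.22 (SE 0.06, adjusted p = 0.014). Without cisplatin 1 or without combination 2, Atp5g2 was not called, and Atp5l was not called without cisplatin 1.

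In complex IV the largest rise was that of Cox7a2, with 191, 199 and 196 CPM in the combination against 133, 148 and 145 CPM in cisplatin (0.46, SE 0.07, adjusted p = 4.3e-04). Cox7b had 163, 172 and 159 CPM in the combination against 111, 132 and 135 CPM in cisplatin (0.38, SE 0.07). Cox6a1, which was not called for cisplatin alone, rose in the combination, with 369, 378 and 376 CPM against 309, 332 and 299 CPM in cisplatin (0.26, SE 0.07, adjusted p = 0.014). Its call was lost without cisplatin 1 and without combination 3. Cox6b1 had 227, 235 and 234 CPM in the combination against 183, 203 and 197 CPM in cisplatin (0.26, SE 0.08, adjusted p = 0.020), and was not called without cisplatin 1, combination 2 or combination 3. Cox8a had 347, 332 and 342 CPM in the combination against 253, 274 and 257 CPM in cisplatin (0.38, SE 0.08). Cox7a2l had 115, 120.0 and 118 CPM in the combination against 97.8, 98.4 and 94.8 CPM in cisplatin (0.28, SE 0.06). In all 6 of these genes every combination library was above every cisplatin library.

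Cox6b2 did not follow the other members. It had 9.46, 10.8 and 11.4 CPM in the combination, against 8.63, 11.2 and 12.2 CPM in cisplatin. The groups overlapped, and the log2 fold change was -0.01 with a 95% interval of -0.29 to 0.26. Cox6b2 made up 4.84% ± 0.362 of the Cox6b RNA per length in the combination and 5.76% ± 0.730 in cisplatin (SD, n = 3, exact permutation p = 0.2). The other members not called were Cox7a1 at 0.27 (adjusted p = 0.059), Atp5k at 0.32 (adjusted p = 0.088), Cox4i2 at 0.36, Cox6a2 at 0.28 and Atp5s at 0.08.

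**Figure D4:**
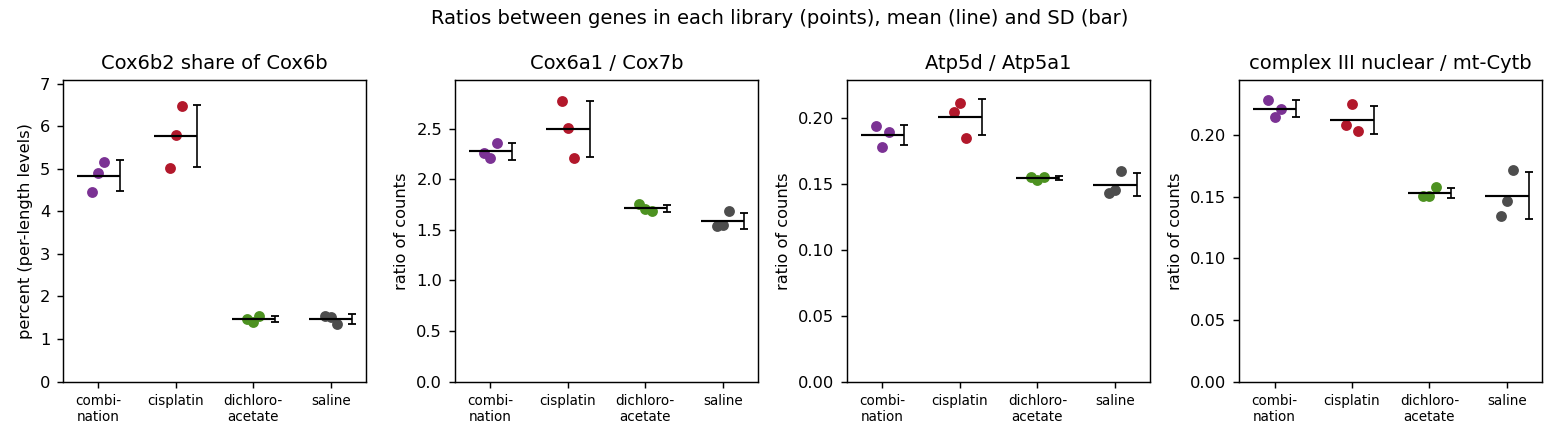
Ratios between genes in each library of the combination, cisplatin, dichloroacetate and saline groups (points), with the mean as a line and the SD as a bar, all axes from 0. The Cox6b2 share is 4.84% in the combination, 5.76% in cisplatin, 1.47% in dichloroacetate and 1.47% in saline, and the Cox6a1 to Cox7b ratio is 2.27, 2.50, 1.71 and 1.59 in the same groups.

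The combination was also set against saline, to see how far the members stood from untreated kidneys. There 14 of the 39 tested members were lower, 1 was higher and 24 were not called, against 19.6% of all genes that were lower and 20.6% that were higher. The median was -0.11 over the members and 0.01 over all genes. The 14 lower members were Uqcrc2, Uqcrfs1, Uqcr11, Cox6c, Cox7a2, Cox7b, Atp5a1, Atp5b, Atp5c1, Atp5e, Atp5f1, Atp5g3, Atp5h and Atp5j. Each of them also fell in cisplatin against saline and rose in the combination against cisplatin. Uqcr11 stood at -0.43 (SE 0.09, adjusted p = 0.0023), with 113, 118 and 108 CPM in the combination against 134, 143 and 180.2 CPM in saline, and Cox7b at -0.37 (SE 0.07, adjusted p = 0.0014). The median was -0.04 without saline 3 and -0.17 without saline 1. The count of 14 became 9 without saline 3, without combination 1 or without combination 3, and without saline 3 Cox6a1 was called higher at 0.24. The member that was higher, Cox6b2, stood at 1.59 (SE 0.13, adjusted p = 5.3e-07).

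Another 18 members fell with cisplatin, rose in the combination against cisplatin and were not called between the combination and saline. The nearest to zero in the combination against saline were Uqcrc1 at -0.01, Uqcrq at -0.03, Cox5a at -0.01, Cox8a at -0.02, Atp5d at 0.01 and Atp5o at 0.01. Others stood lower, among them Atp5g2 at -0.14, Cox7c at -0.13 and Atp5l at -0.11. Of all 39 tested members 33 were below zero in this comparison, so a member that was not called need not be back at the saline level. These comparisons share the cisplatin, combination or saline libraries, so their calls are not independent of each other. Proximal tubule markers remained lower in the combination than in saline in 11 of 12 genes, with 8127 to 8942 CPM against 16091 to 18085 CPM. Lower too were 7 of 8 loop and distal tubule markers, with 1 higher, 4 of 8 collecting duct and 5 of 8 endothelial markers. Smooth muscle and pericyte markers had 3 of 8 lower, and macrophage markers 3 of 8 lower and 1 higher. The part of these cell types in the members' values was not tested.

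The combination against dichloroacetate alone gives the effect of cisplatin in mice that had dichloroacetate. Of the 39 tested members 25 fell, 1 rose and 13 were not called, against 19.2% of all genes that fell and 21.5% that rose. The median was -0.27 over the members and 0.01 over all genes. Proximal tubule markers fell in 10 of 12 genes, with a median of -0.85 and 8127 to 8942 CPM in the combination against 15501 to 17132 CPM in dichloroacetate. Loop and distal tubule markers fell in 6 of 8 genes and rose in 1, with 1837 to 2874 CPM against 4691 to 5108 CPM. Collecting duct markers fell in 3 of 8 (599 to 685 CPM against 687 to 757 CPM), and endothelial markers fell in 3 of 8 (190.5 to 247 CPM against 239 to 293 CPM). Smooth muscle and pericyte markers had 2 of 8 genes lower and 1 higher (127 to 156 CPM against 146 to 192 CPM), and macrophage markers 3 lower and 1 higher (70.4 to 77.6 CPM against 80.3 to 118 CPM). The part of these cell types in the members' fall was not tested. Uqcr11 was lowest among the well-expressed members, with 113, 118 and 108 CPM in the combination against 153, 157 and 161 CPM in dichloroacetate (log2 -0.48, SE 0.09, adjusted p = 0.0011). Atp5b had 2654, 2636 and 2634 CPM in the combination against 3203, 3200.3 and 3341 CPM in dichloroacetate (-0.30, SE 0.05, adjusted p = 2.9e-04). Cox6b2 had 9.46, 10.8 and 11.4 CPM in the combination against 3.76, 3.66 and 4.07 CPM in dichloroacetate (1.47, SE 0.13, adjusted p = 9.7e-07). In these 3 genes the groups did not overlap. Cox6a2 was called at -0.79 (SE 0.25, adjusted p = 0.024), but on 0.353 to 0.761 CPM in the combination against 0.863 to 1.27 CPM in dichloroacetate. It was not called in a fit of these groups alone (adjusted p = 0.067, or 0.087 with the replicate number as a block) or by DESeq2 (adjusted p = 0.053). Nor was it called without dichloroacetate 2 (-0.63) or without combination 2 (-0.49).

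Whether the effect of cisplatin differed with dichloroacetate was tested as an interaction, the combination over dichloroacetate less cisplatin over saline. A positive value means a smaller fall or a larger rise with dichloroacetate. Of the 39 tested members 8 were called positive and none negative, against 11.4% of all genes called positive and 7.15% negative. The median was 0.22 over the members and 0.03 over all genes, and 36 of 39 values were above zero, against 53.3% over all genes. The 8 were Atp5a1 at 0.30 (SE 0.07, adjusted p = 0.0079), Atp5c1, Uqcrfs1, Atp5j, Atp5b, Cox7a2, Cox7b and Uqcrc2. The count depended on single libraries, being 1 without cisplatin 1, 2 without cisplatin 2 or combination 3, 3 or 4 without saline 2, saline 3, combination 1, combination 2 or any dichloroacetate library, and 21 without saline 1. With RLE scaling it was 3. The interaction of Cox6b2 was -0.14 (SE 0.18, adjusted p = 0.64), with a 95% interval of -0.55 to 0.27. All 12 proximal tubule markers had a positive interaction, with a median of 1.11. Called positive were also 3 of 8 collecting duct markers and 2 of 8 loop and distal tubule markers. Of the 8 macrophage markers Cd68 was called negative at -2.58, and no endothelial or smooth muscle and pericyte marker was called. The part of these cell types in the members' values was not tested.

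Dichloroacetate without cisplatin was compared with saline. None of the 39 tested members was called by edgeR's quasi-likelihood test, where 0.128% of all genes rose and 0.182% fell. At an unadjusted p below 0.05 there were 9 of 39 members, against 11.9% of all genes. DESeq2 called 1 member, Uqcrc1 at 0.16 (adjusted p = 0.043), where 1.18% of the genes with an adjusted p rose and 0.994% fell. All 39 log2 fold changes were above zero, against 48.3% over all genes, a background not matched for transcript length. Without saline 1, Atp5g2 stood at -0.037 and Cox7a2l at -0.030. The median over the members was 0.13, against -0.01 over all genes. The members' median became 0.06 without saline 1 and 0.20 without saline 3. Uqcrc1 had 475, 485 and 476 CPM in dichloroacetate against 412, 431 and 450.3 CPM in saline, without overlap. Atp5k had 142, 140.2 and 137 CPM in dichloroacetate against 89.2, 107 and 147 CPM in saline, where saline 3 was above all dichloroacetate libraries, and it was called at 0.51 when saline 3 was left out (adjusted p = 0.032). Cox6a2 had the largest value, 0.69 (SE 0.24, adjusted p = 0.27), on 0.863 to 1.27 CPM in dichloroacetate against 0.620 to 0.661 CPM in saline. Atp5g2 had the smallest, 0.01, with 98.3, 108 and 106 CPM in dichloroacetate against 97.2, 102 and 111 CPM in saline.

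The partners of these subunits encoded in mitochondrial DNA moved in the same directions. All 6 fell with cisplatin, led by mt-Cytb, cytochrome b of complex III, at -0.99 (SE 0.06, adjusted p = 7.4e-09), and by the ATP synthase subunit mt-Atp8 at -0.66. All 6 rose in the combination against cisplatin, with a median of 0.20, and all 6 were lower in the combination than in saline, with a median of -0.40. None of the 6 was called in the interaction. The balance with the nuclear subunits was compared within each complex, and no test was made between complexes. Summed nuclear complex III counts were 0.212 ± 0.0116 of mt-Cytb counts in cisplatin against 0.151 ± 0.0190 in saline (SD, n = 3), with no overlap (exact permutation p = 0.1). Nuclear complex IV counts were 0.0334 ± 0.00229 of the mt-Co1, mt-Co2 and mt-Co3 counts in cisplatin against 0.0332 ± 0.00426 in saline, and the groups overlapped (exact permutation p = 0.9). For ATP synthase the same ratio to mt-Atp6 and mt-Atp8 was 0.479 ± 0.0219 against 0.457 ± 0.0558, with overlap (exact permutation p = 0.5). The saline libraries were spread here too, with complex IV ratios of 0.0297, 0.0321 and 0.0379 in saline 1, 2 and 3. In the combination against dichloroacetate each of these ratios was higher without overlap (exact permutation p = 0.1 for each). The log2 differences there were 0.53 for complex III, 0.15 for complex IV and 0.29 for ATP synthase.

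Nuclear genes close to the members gave similar values. Cyc1, the nuclear cytochrome c1 of complex III, fell by 0.44, cytochrome c itself (Cycs) by 0.64 and Ndufa4, a late-assigned complex IV subunit, by 0.51 with cisplatin, and all 3 rose in the combination against cisplatin. Atpif1, the inhibitor of ATP synthase, was not called in either. All 4 complex II genes fell with cisplatin, from -0.53 for Sdhc to -0.88 for Sdhb, and all 4 rose in the combination.

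The factors that build the complexes did not move as the subunits did. Of 22 complex IV assembly factors tested 9 fell, 4 rose and 9 were not called with cisplatin, with a median of -0.08. Over all genes tested 30.4% fell and 29.7% rose. Cox16 fell by 0.84 (SE 0.06), Coa6 by 0.80, the haem-modifying Cox10 by 0.64, and Lrpprc, which stabilises mitochondrial mRNA, by 0.49. Sco2, a copper chaperone that is a known target of p53, rose by 0.66 (SE 0.07, adjusted p = 2.0e-06). In the combination against cisplatin 6 rose and 1, Sco2, fell at -0.40 (adjusted p = 5.6e-04). There 18.1% of all genes tested rose and 13.5% fell. Of 6 complex III assembly factors 2 fell and 1 rose with cisplatin, with Uqcc1 at -0.59, Ttc19 at -0.23 and Uqcc2 at 0.21, and of 5 for ATP synthase only Tmem70 was called, at -0.43.

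Regulators of nuclear mitochondrial genes went in both directions, as did all genes tested. Of 11 regulators tested 5 fell and 4 rose with cisplatin, against 30.4% of all genes that fell and 29.7% that rose. The coactivators Ppargc1b and Ppargc1a, which encode PGC-1beta and PGC-1alpha, fell by 1.02 (SE 0.14, adjusted p = 3.7e-05) and by 0.80 (SE 0.10, adjusted p = 1.5e-05). Their relative Pprc1 rose by 1.16 (SE 0.10, adjusted p = 5.0e-07). Gabpb1 rose by 0.65, while its DNA-binding partner Gabpa fell by 0.36 and Tfb2m, a factor of mitochondrial transcription, fell by 0.34. In the combination against cisplatin Pprc1 fell by 0.89, Gabpb1 by 0.41 and Yy1 by 0.17, while Ppargc1a rose by 0.55, Esrra by 0.24 and Gabpa by 0.15. Of 12 genes of the outer membrane and of protein import 5 fell, 2 rose and 5 were not called with cisplatin, with a median of -0.13. Over all genes tested 30.4% fell and 29.7% rose.

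**Figure D5:**
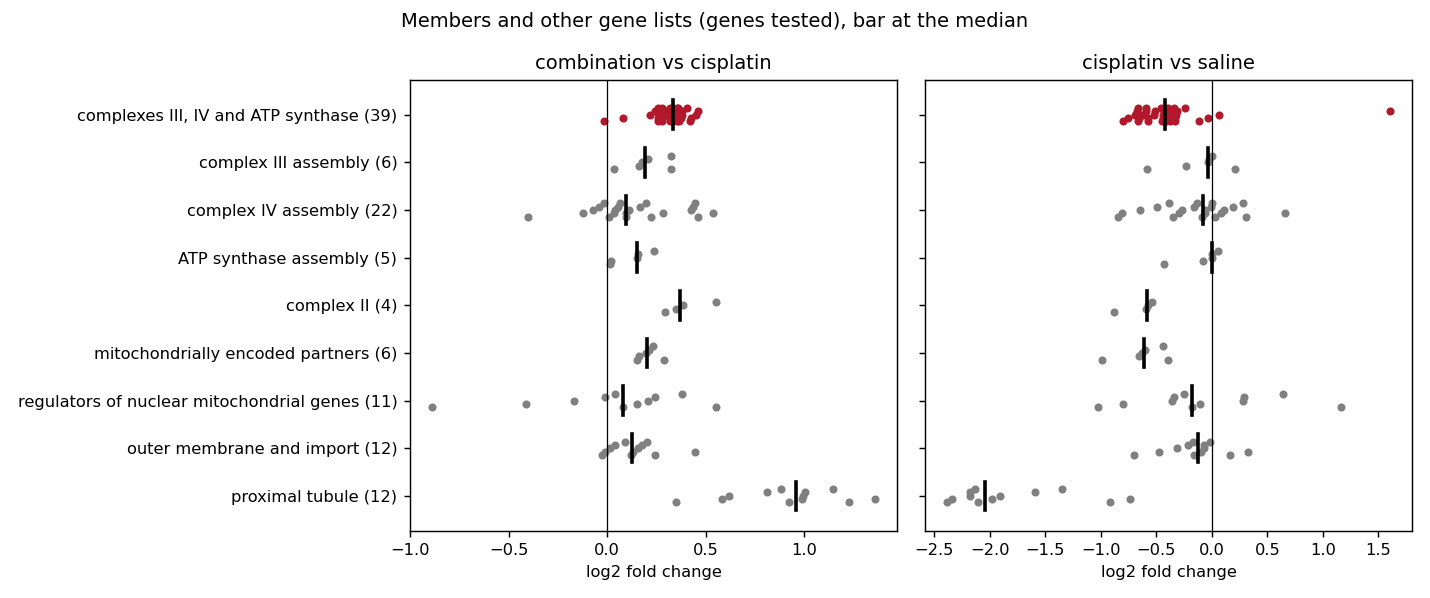
Log2 fold changes (horizontal axes) of the 39 tested members (red) and of 8 other gene lists (grey), with the number of genes tested and a bar at each median, for the combination against cisplatin (left) and cisplatin against saline (right). With cisplatin the members have a median of -0.42, complex II genes of -0.59, mitochondrially encoded partners of -0.61, complex IV assembly factors of -0.08 and proximal tubule markers of -2.04.

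Several members share reads or exons with other genes. The library kit named in the labels keeps no strand and none is stated for the counting, so reads in shared exons cannot be told apart. Exons of Uqcrc2 overlap Pdzd9 (-0.93 with cisplatin), those of Cox6c overlap Vps13b (-2.56), those of Atp5j overlap Gabpa (-0.36) and those of Atp5f1 overlap Wdr77, which rose by 0.45. Vps13b averaged 8.61 CPM in cisplatin and 50.7 CPM in saline, where Cox6c had 198 to 226 CPM and 310.0 to 376 CPM. Pdzd9 averaged 5.88 CPM in cisplatin and 11.2 CPM in saline. Near-identical copies held reads equal to 41.6% of those of Atp5l in the largest of 3 copies, 42.7% of those of Cox7c in the larger of 2, 17.8% of those of Cox5b and 9.06% of those of Atp5f1. With the copies added to their members, 34 members still fell and 1 rose with cisplatin, and 33 rose in the combination against cisplatin. This check was chosen after the data were seen.

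The members are compact genes, spanning 953 to 24495 bases. Among the 9716 tested genes in that range 24.0% fell and 36.3% rose with cisplatin, with a median of 0.09, and 13.9% rose in the combination against cisplatin. Across the 39 members, which share their libraries, Spearman's rho of the cisplatin log2 fold change was -0.08 with gene span, -0.04 with transcript length and -0.45 with mean CPM in saline.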

How the data were processed

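Raw gene counts, as deposited by the authors with a column for each mouse, were used unchanged. Their normalised table was not used. RNA was column-purified and treated with DNase, and TruSeq libraries were made, per the labels' protocols. Per the submitters' processing notes the build was mm10 and the tools named were Trimmomatic, TopHat, Cufflinks, HTSeq, bedtools and DESeq, with versions not given in the sources used here. Identifiers were matched to GENCODE M21 (27955 of 28991), and 6 pseudogenes with such symbols were left out.

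All 12 libraries were fitted in 1 model with edgeR 4.0.16 (TMM, filterByExpr, quasi-likelihood test, 2-sided, Benjamini-Hochberg over 20370 genes), with a mean per group, 8 residual degrees of freedom and a biological coefficient of variation of 0.092, in R 4.3.3. Standard errors are the log2 fold change over the square root of F. The fit was tested on simulated data. Deviations of same-numbered libraries of the combination and dichloroacetate correlated weakly, at over 0.1 in 3 of 3 pairs (0.131 to 0.348). No label pairs them and differently numbered libraries were not compared, so a pairing is not established. No other 2 groups had all 3 pairs over 0.1. Ratios were compared on the log2 scale by exact permutation. Replicate pairs differed by more than sampling noise (chi-square per degree of freedom 4.64 to 28.2). Precision is limited by 3 mice per group for all but the lowest members.

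Values in every library are given for the highest member of each role, for paralogues and for the 2 highest and 2 lowest log2 fold changes of each comparison. Genes of other lists are named by size of change where called, at most 6 a list. Members, lists and tests were chosen with earlier results of these data known. Alternatives were RLE and upper-quartile scaling, no filter, DESeq2 1.42.0, a replicate block, 2-group fits, removal of mitochondrial DNA genes and leaving out each library. Near-identical copies were found with blastn 2.17.0 (97% identity over 150 bases).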

Additional observations from a re-analysis of the deposited data

Results flagged for a closer look

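For 8 members the effect of cisplatin differed between mice with and without dichloroacetate by the interaction test of edgeR's quasi-likelihood fit. Their interaction log2 values were 0.30 for Atp5a1 (adjusted p = 0.0079), 0.30 for Atp5c1 (0.016), 0.28 for Uqcrfs1 (0.018), 0.29 for Atp5j (0.034), 0.22 for Atp5b (0.042), 0.33 for Cox7a2 (0.043), 0.33 for Cox7b (0.044) and 0.24 for Uqcrc2 (0.048). Over all genes tested 11.4% were called positive. The count of 8 was 1 to 21 when any 1 library was left out and 3 with RLE scaling. In each of the 8 members the log2 fold change was negative in both settings. The fall was smaller with dichloroacetate, which follows from the positive interaction by which they were chosen. For Atp5a1 it was -0.36 in the combination against dichloroacetate and -0.66 in cisplatin against saline, and for Cox7b -0.43 and -0.75 in the same comparisons. Groups of 3 libraries are too small for the search for single outlying libraries.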

How the results depend on the processing

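With cisplatin against saline 33 to 35 members were lower and 1 higher when any 1 library was left out, with medians of -0.49 to -0.34. The combination against cisplatin gave 22 to 35 higher (medians 0.26 to 0.36). The combination against dichloroacetate gave 19 to 32 lower and 1 higher (medians -0.27 to -0.25). The combination against saline gave 9 to 19 lower and 1 to 2 higher (medians -0.17 to -0.04). Dichloroacetate against saline gave 0 to 1 higher (medians 0.06 to 0.20), and the interaction 1 to 21 (medians 0.13 to 0.28). Among the other settings, RLE scaling left 3 interaction calls instead of 8, and DESeq2 made 1 call for dichloroacetate against saline instead of 0. The cause was not tested. The other counts and medians kept their direction and stayed within 1.5 times, or within the replicate spread of 0.092 for medians.

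The replicate numbers did not pair the libraries over all groups: deviations of same-numbered libraries correlated at -0.22 to 0.35, over 0.1 in 7 of 18 pairs. Between the combination and dichloroacetate all 3 pairs were over 0.1. There 27 members were lower with the replicate block over all libraries, and 32 in a fit of these groups alone with the block, added after the data were seen, against 25 without a block. With the replicate block 34 members were lower and 1 higher with cisplatin, 33 were higher in the combination against cisplatin, 16 were lower in the combination against saline and 12 were positive in the interaction.

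Signs were followed for the highest member of each role, for paralogues and for the extremes of each comparison. Among these, signs turned only for values that were not called. Signs of the other members were not followed. Over the leave-one-out fits, Cox4i2 ranged from -0.17 to 0.10 with cisplatin, from -0.10 to 0.48 with dichloroacetate, from -0.16 to 0.43 for the combination against dichloroacetate and from -0.13 to 0.46 in the interaction. For dichloroacetate against saline Atp5g2 ranged from -0.037 to 0.062, and was -0.00026 with upper-quartile scaling and -0.016 with copies added, and Cox7a2l ranged from -0.030 to 0.088. For the combination against cisplatin Cox6b2 ranged from -0.17 to 0.094 and Atp5s from -0.00040 to 0.19. For the combination against saline Atp5g1 ranged from -0.11 to 0.037, Cox8a from -0.093 to 0.094 and Cox6a2 from -0.30 to 0.20. The interaction of Cox7a1 ranged from -0.0031 to 0.17. Cox4i2, Cox6a2 and Cox8b, with 0 to 57 counts per library, are limited by depth.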

Other observations

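The promoter motifs can be set beside the log2 fold changes of cisplatin against saline, as a description with no test and chosen after the values were seen. Members with the NRF1 letters were Cox6a1 at -0.11, Uqcrc1 at -0.32, Atp5k at -0.33, Atp5g2 at -0.36, Atp5l at -0.37 and Uqcr11 at -0.80. Those with the ETS letters were Cox8a at -0.40, Atp5h at -0.44, Uqcrh at -0.51 and again Uqcr11. With these letters the values of the NRF1 and ETS members overlap, and Uqcr11 belongs to both sets. The other NRF1 members stood at -0.37 to -0.11 and the other ETS members at -0.51 to -0.40. The nearest of these, Atp5l (SE 0.07) and Cox8a (SE 0.08), differed by less than their standard errors. With the longer NRF1 form searched first, which fewer members hold, the values did not overlap. No difference between the sets was tested. Those with the YY1 letters were Atp5j2 at -0.46, Atp5f1 at -0.57 and Atp5j at -0.66, and Atp5g3, with the ERR letters, stood at -0.63. In the same comparison the Nrf1 gene stood at 0.29, Gabpa at -0.36, Yy1 at 0.28 and Esrra at -0.25.

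Usmg5, a small ATP synthase subunit whose later symbol is Atp5md, lies outside the rule by its symbol. It had a log2 fold change of -0.60 (SE 0.08) in cisplatin against saline, 0.34 (SE 0.08) in the combination against cisplatin and -0.26 (SE 0.08) in the combination against saline, each called by edgeR's quasi-likelihood test.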
